A study of Mus musculus with 35 samples.

Results

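The 40 genes described here belong to the oligodendrocyte lineage, the cells that form myelin in the brain. They were taken by name from the 52636 gene identifiers of the count files, and all 40 were found. They were ordered by the stage at which each is known to be high: 2 genes of oligodendrocyte precursor cells (Pdgfra, Cspg4), 3 genes of newly formed oligodendrocytes (Gpr17, Enpp6, Bcas1), 5 transcription factors of the lineage (Sox10, Olig1, Olig2, Myrf, Nkx6-2), and 30 genes of mature, myelinating oligodendrocytes. Expression was measured by RNA sequencing of laser-captured pieces of the anterior and posterior portion of the basolateral amygdala, in 35 libraries from 19 female mice of the inbred strain C57BL/6J or the hybrid strain B6D2F1N. The mice of each strain were kept either in standard cages or, from postnatal day 77, with daily access for 1 h to an enriched playground cage. All of them had been trained on a touchscreen from postnatal day 70 for 37 to 90 days and had then been tested for judgement bias over 5 days, so no group of untrained mice exists. In C57BL/6J there were 4 standard and 2 enriched anterior libraries and 4 standard and 4 enriched posterior libraries. In B6D2F1N there were 5 and 5 anterior and 5 and 6 posterior libraries, and 16 of the 19 mice had libraries of both portions among the 35 used here. Each captured piece is a mixture of cells. A higher or lower level of a gene can reflect another number of cells of a type or another amount of RNA per cell, and these cannot be told apart.

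Oligodendrocytes arise from dividing precursor cells that carry the growth factor receptor PDGFRα and the proteoglycan NG2, the products of Pdgfra and Cspg4. When a precursor leaves the cell cycle it passes through a brief stage marked by Gpr17, Enpp6 and Bcas1, and the transcription factor encoded by Myrf then switches on the genes of the myelin sheath. Mature cells wrap axons with layers of membrane that basic proteins such as that of Mbp hold together. Precursors persist throughout adult life, and in rodents new myelin is laid down in adulthood when animals learn or are housed in richer surroundings.

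The libraries held 16938534 to 27352623 counts in genes, with a median of 21409708, and 18580 to 25531 genes had at least 1 count. The 40 genes took 0.149% to 2.275% of these counts, with a median of 0.564%. Neuronal markers of the amygdala were present in every library, Slc17a7 at 72.9 to 888 CPM (read counts scaled to a common library total) and Gad1 at 149 to 485 CPM. Ttr, a marker of the choroid plexus, ran from 2.37 to 13700 CPM, so the pieces differed in what they held beside amygdala tissue. Every CPM given here was scaled over the 35 libraries with the trimmed mean of M-values (TMM).

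The sequences before the start sites are shown for 4 genes that the comparisons below turn on: Padi2, Mobp and Mag of the mature group, and Pdgfra as the precursor gene that did not move with them. Padi2 encodes a peptidylarginine deiminase that converts arginines of myelin basic protein to citrulline, Mobp a basic protein of compact myelin, and Mag a glycoprotein of the innermost myelin layer that faces the axon. The RefSeq windows on GRCm38.p6 run 300 bases, from 250 before to 50 after the annotated start, and lie at chr4:140906110-140906409 on the + strand for Padi2, chr9:120149492-120149791 on the + strand for Mobp, chr7:30914873-30915172 on the - strand for Mag and chr5:75152001-75152300 on the + strand for Pdgfra. Capitals mark matches on either strand to CTGGNAC, a core bound by the MYRF protein, and to ACAAAG and ACAAT, cores bound by SOX proteins, with no overlap between matches.
Padi2: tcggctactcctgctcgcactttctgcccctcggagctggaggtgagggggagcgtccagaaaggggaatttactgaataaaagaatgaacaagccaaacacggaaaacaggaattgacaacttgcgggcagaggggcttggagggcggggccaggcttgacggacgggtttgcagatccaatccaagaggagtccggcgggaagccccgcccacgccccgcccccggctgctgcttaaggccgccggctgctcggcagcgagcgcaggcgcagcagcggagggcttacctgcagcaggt
Mobp: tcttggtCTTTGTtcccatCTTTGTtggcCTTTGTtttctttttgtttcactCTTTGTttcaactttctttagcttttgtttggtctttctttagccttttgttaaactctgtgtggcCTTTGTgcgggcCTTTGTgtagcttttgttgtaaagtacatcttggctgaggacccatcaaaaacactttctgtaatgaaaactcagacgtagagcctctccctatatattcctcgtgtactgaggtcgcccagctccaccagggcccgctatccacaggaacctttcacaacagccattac
Mag: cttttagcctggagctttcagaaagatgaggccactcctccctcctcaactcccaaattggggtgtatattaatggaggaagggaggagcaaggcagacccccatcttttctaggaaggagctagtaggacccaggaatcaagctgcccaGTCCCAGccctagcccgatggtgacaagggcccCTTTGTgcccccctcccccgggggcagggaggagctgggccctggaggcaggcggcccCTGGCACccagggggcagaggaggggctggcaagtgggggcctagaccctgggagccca
Pdgfra: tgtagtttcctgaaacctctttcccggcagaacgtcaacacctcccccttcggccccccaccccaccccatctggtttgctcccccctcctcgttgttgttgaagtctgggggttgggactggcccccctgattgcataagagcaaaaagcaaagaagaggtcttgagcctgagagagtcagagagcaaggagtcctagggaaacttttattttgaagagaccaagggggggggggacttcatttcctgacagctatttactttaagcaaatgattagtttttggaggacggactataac
The Mobp window held 6 matches to ACAAAG. In the Mag window, the most upstream of 3 for that gene, there were 2 matches to CTGGNAC and 1 to ACAAAG. Neither the Padi2 nor the Pdgfra window held a match to any of the 3 cores. RefSeq windows were matched for 30 of the 40 genes, in 40 windows, and were compared with all 32851 windows of the same length. CTGGNAC stood in 32.5% of the windows of the 40 genes and in 19.3% of all windows, ACAAAG in 27.5% against 18.7%, ACAAT in 30.0% against 31.0%, and the E-box CANNTG, the kind of site bound by OLIG proteins, in 72.5% against 72.3%. A match is a description of letters in a window, not a binding site or a cause.

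Levels of the genes differed over a wide range. Per kilobase of exon, Mbp had the highest mean level of the 40 at 426 CPM per kb, followed by Car2 (carbonic anhydrase) at 158, Mog (a surface glycoprotein of the outer sheath) at 121 and Cldn11 (the tight junction protein of myelin) at 120. The lowest were Cspg4 at 1.12 and the transcription factor gene Nkx6-2 at 0.702 CPM per kb. Without division by length, Mbp alone made up 47.0% and Mobp 9.82% of the summed CPM of the 40 genes, so a sum over the mature genes mostly follows Mbp. At least 1 count was found in all 35 libraries for 38 genes. The exceptions were Plekhh1, with no count in 1 library, and Nkx6-2, with none in 3.

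Mature genes varied far more between libraries than precursor genes did. Mbp ran from 358 to 12100 CPM, and the ratio of the highest to the lowest library had a median of 11.8 over the genes with a count in every library. The same ratio was 3.13 for Pdgfra and 3.65 for Cspg4. Most mature genes varied together from library to library. The log2 level of each gene was set against the log2 summed level of the mature genes, leaving the gene itself out, over the 35 libraries of all groups, which share their normalization, and Pearson's r is given as a description. It was 0.986 for Mobp, 0.965 for Mag, 0.964 for Trf (transferrin, an iron carrier that oligodendrocytes secrete) and 0.955 for Mbp, with a median of 0.855 over the 30 mature genes. Among them Hapln2, a link protein of the node of Ranvier, stood apart at 0.045. Bcas1 and Myrf followed the mature genes closely, at 0.931 and 0.919. Olig1, Sox10 and Enpp6 did so less closely, at 0.775, 0.769 and 0.618, whereas Gpr17 gave 0.149, Cspg4 0.022 and Pdgfra -0.378.

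**Figure D1:**
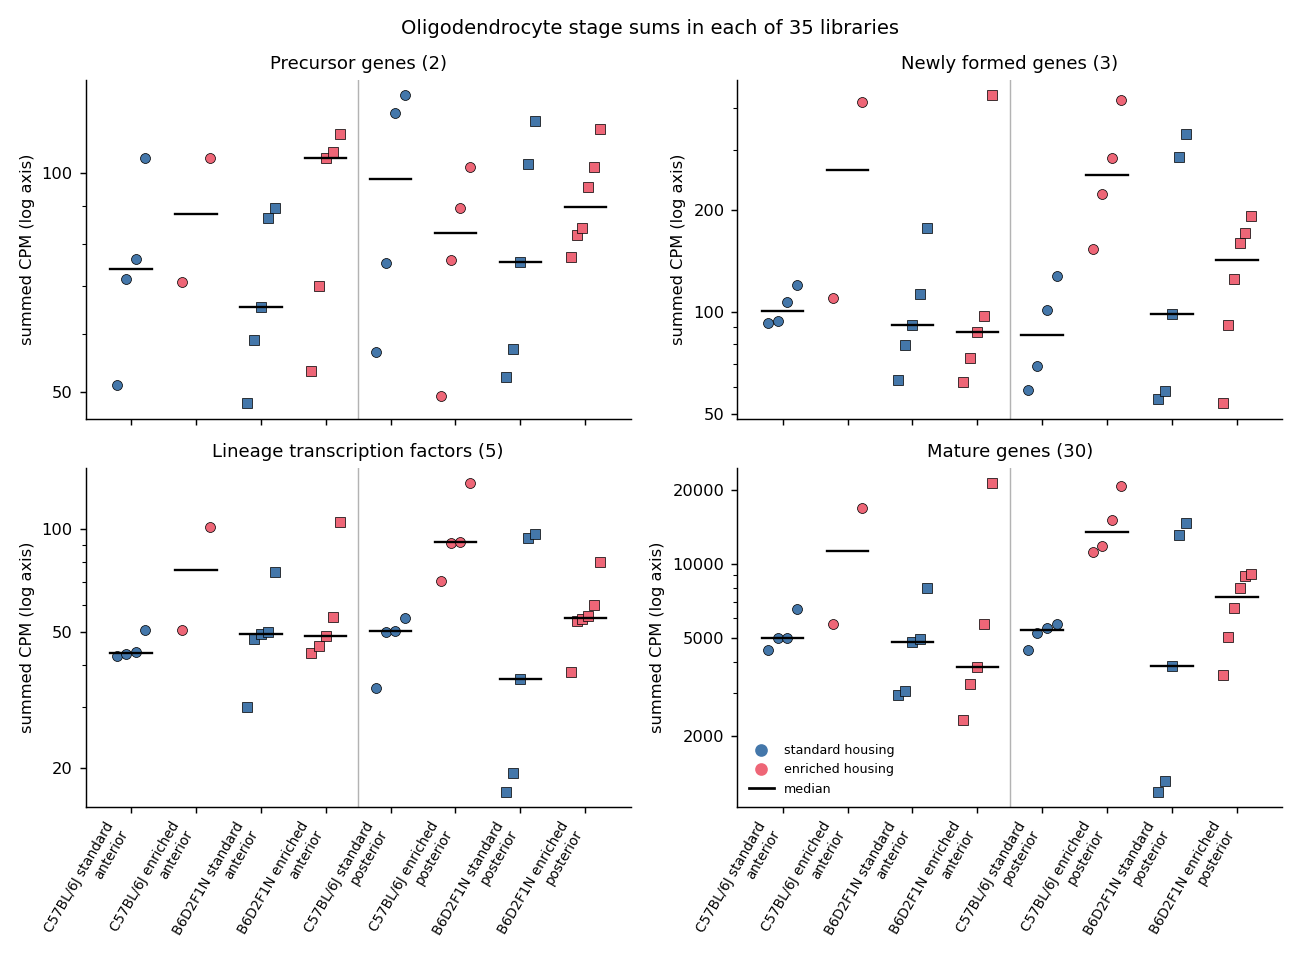
Summed CPM (log scale) of the precursor, newly formed, transcription factor and mature genes in each of the 35 libraries, by strain, housing and portion. Each point is 1 library and the bar marks the group median. The mature sum of the 4 enriched posterior C57BL/6J libraries lay at 11200 to 20700 CPM, above the 4 standard ones at 4460 to 5670 CPM, while the precursor sums of these groups overlapped.

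The question of the housing comparison was whether life with the playground was accompanied by other gene activity in the amygdala, within each strain and portion. In the posterior portion of C57BL/6J, the summed level of the mature myelin genes was higher in every enriched than in every standard mouse, Mbp and Padi2 passed the test across all genes, and neither precursor gene did. The mature sum was 5260, 5670, 4460 and 5510 CPM in the standard mice and 15000, 20700, 11200 and 11800 CPM in the enriched mice, means of 5220 ± 538 and 14700 ± 4370 (SD, n = 4 each). The newly formed sum was 89.0 ± 30.9 CPM in standard and 271 ± 114 CPM in enriched mice, at 58.8 to 127 against 153 to 421, and again the groups did not overlap. For the transcription factors the sums were 34.3 to 55.0 and 70.2 to 136 CPM. The precursor sum was 56.7 to 128 CPM in standard and 49.4 to 102 CPM in enriched mice, and these groups overlapped. Set against the mature sum, which does not contain them, the precursor genes came to 1.81% ± 0.549 in standard and 0.601% ± 0.288 in enriched mice, and the newly formed genes to 1.69% and 1.82%. With precursor sums that overlapped, the lower precursor ratio of the enriched mice goes with their higher mature sums. The labels also class some mice by judgement bias, as optimist or pessimist. Enriched mice 1 and 2, with the highest mature sums, were the pessimists of these groups and no standard mouse was one, while the enriched mice without a class, at 11200 and 11800 CPM, still lay above the standard mice. Over both strains the mature sum ran from 3540 to 20700 CPM in the 5 posterior libraries of pessimists and from 1190 to 13100 CPM in the 4 of optimists, and the part of the class in the housing difference was not tested.

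Of the 24526 genes tested in this comparison by edgeR's quasi-likelihood test, 4 were called at a Benjamini-Hochberg adjusted p of at most 0.05, which is 0.0163%, and 2 of the 4 were among the 40: Mbp and Padi2. The other called genes, 9130024F11Rik and Trp53inp2, were named after their values were seen, and both were higher in enriched mice. Mbp, on chromosome 18, was at 2420, 1980, 1820 and 2260 CPM in standard and 9620, 11400, 5950 and 6300 CPM in enriched mice. Its lowest enriched library stood well above its highest standard library. The log2 fold change was 1.97 (SE 0.271, adjusted p = 0.0366). Padi2 was at 1.16, 1.62, 1.56 and 2.74 CPM in standard and 9.14, 16.8, 11.9 and 13.5 CPM in enriched mice, again without overlap, and its log2 fold change was 2.86 (SE 0.417, adjusted p = 0.0366). Both calls were lost in 7 of the 8 fits that left out 1 mouse, with log2 fold changes of 1.78 to 2.11 for Mbp and 2.69 to 3.14 for Padi2. They were also lost in 1 fit of the 4 groups, with only mice that have both portions and with either number of the sample title as a term. These numbers differ with housing, as described below. Among libraries numbered up to 30, which leave 1 enriched mouse, the log2 fold change was 1.45 for Mbp and 2.71 for Padi2. Over all alternatives besides leaving out each mouse, it ran from 1.45 to 2.59 for Mbp and from 1.89 to 2.86 for Padi2. Both calls were kept without enriched mouse 3, the animal with the lowest mature sum of its group, where 10 of the 40 genes were called among 172 genes in all.

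Beyond these 2, the mature genes leaned in 1 direction. Of the 40 genes, 38 had a positive log2 fold change, and the median was 1.03 against 0.023 over all genes tested. An unadjusted p under 0.05 with a higher level in enriched mice was reached by 27 of the 40, namely 23 mature genes, 2 transcription factors and 2 newly formed genes, where 6.61% of all genes did so. For 19 of the 40 the groups did not overlap and enriched mice were higher, against 3.00% of all genes. DESeq2, run on the same libraries, called 15 of the 40, all higher in enriched mice, where it called 1.25% of its genes in that direction. Besides Mbp and Padi2 these were Bcas1, Myrf, Mobp, Cldn11, Tmem88b, Mag, Cnp, Gsn, Plekhh1, Gjb1, Qdpr, Trf and Adamts4. The 40 genes were chosen with earlier results of these data known, so these counts are a description.

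Among the proteins of compact myelin and the tetraspan proteins, 5 of 7 genes reached an unadjusted p under 0.05. Mobp stood at 349, 626, 400 and 464 CPM in standard and 1330, 2580, 1020 and 1540 CPM in enriched mice, with no overlap, a log2 fold change of 1.82 and an adjusted p of 0.0821. Mal and Tspan2, which encode membrane proteins of myelin, showed the smaller differences of the class at 0.44 and 0.36. Of the 10 genes for surface, adhesion and cytoskeletal proteins, 8 reached an unadjusted p under 0.05. Mag was at 97.1, 109, 102 and 172 CPM in standard and 367, 445, 323 and 257 CPM in enriched mice (log2 fold change 1.53, SE 0.250, adjusted p = 0.0775), again with every enriched library above every standard one. Cnp, a phosphodiesterase bound to the myelin cytoskeleton, differed by 1.3, and Gsn, the actin-severing protein gelsolin, by 1.31. Both gap junction genes reached an unadjusted p under 0.05, Gjb1 (connexin 32) with a log2 fold change of 1.37 and Gjc3 (connexin 29) with 0.59. Neither was called by edgeR, and DESeq2 called Gjb1 (adjusted p = 0.00894).

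Enzymes of myelin lipid and oligodendrocyte metabolism were less uniform, with 4 of 6 genes at an unadjusted p under 0.05. The range ran from 2.86 for Padi2 down to 0.20 for Ugt8a, which encodes the enzyme that makes galactosylceramide, a main lipid of myelin, with Car2 at 0.44. Among the 5 secreted proteins and receptors, 4 reached an unadjusted p under 0.05. The protease gene Adamts4 had the largest log2 fold change of the 5 at 1.46, and Trf had 1.17. edgeR called none of the enzymes other than Padi2 and none of these 5, whereas DESeq2 also called Qdpr, Trf and Adamts4, with adjusted p values of 0.024, 0.00245 and 0.00069.

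The 3 genes of newly formed oligodendrocytes differed from each other. Bcas1 was at 39.7, 96.4, 45.8 and 66.5 CPM in standard and 178, 380, 108 and 254 CPM in enriched mice, without overlap, and its log2 fold change of 1.89 (SE 0.369) had an adjusted p of 0.144. Enpp6, a choline phosphodiesterase used as a mark of cells that have just left the precursor stage, was at 6.40, 17.1, 4.75 and 11.9 against 17.4, 24.0, 22.3 and 12.4 CPM. These groups overlapped, and the log2 fold change was 0.92 (adjusted p = 0.480). Gpr17, a receptor that is switched off before myelination, was at 12.7, 13.3, 18.8 and 22.7 CPM against 27.8, 17.3, 23.0 and 17.8 CPM, with a log2 fold change of 0.35 (adjusted p = 0.752). So the newly formed sum followed Bcas1, the most abundant of the 3.

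Neither precursor gene passed the test. Pdgfra was at 45.8, 107, 60.6 and 105 CPM in standard and 54.8, 34.8, 78.8 and 87.8 CPM in enriched mice (log2 fold change -0.32, SE 0.319, adjusted p = 0.816). Cspg4 was at 10.9, 20.8, 14.8 and 16.4 against 21.1, 14.7, 10.7 and 13.7 CPM (log2 fold change -0.07, SE 0.307, adjusted p = 0.979). For both genes the groups overlapped.

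No transcription factor was called by edgeR in this comparison, DESeq2 called Myrf (adjusted p = 0.00264), and they too differed from each other. Myrf, which drives the myelin genes, was at 21.0, 17.2, 13.2 and 22.7 CPM in standard and 50.4, 46.6, 38.2 and 32.2 CPM in enriched mice (log2 fold change 1.18, adjusted p = 0.171). Olig1 was at 14.4, 20.6, 11.3 and 12.6 against 20.9, 54.9, 37.3 and 20.7 CPM (1.18, adjusted p = 0.280). For these 2 genes the groups did not overlap. Sox10, expressed at every stage of the lineage, was at 10.9, 6.36, 7.48 and 9.25 against 12.8, 21.1, 13.1 and 7.69 CPM (0.68, adjusted p = 0.499). Olig2, which acts from the precursor stage on, was at 2.89, 9.77, 2.26 and 5.11 against 5.18, 7.28, 2.1 and 6.77 CPM (0.09, adjusted p = 0.983). Nkx6-2 was near the detection limit, at 0 to 1.16 CPM in standard and 0.858 to 5.78 CPM in enriched mice (2.19, SE 1.04, adjusted p = 0.487).

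**Figure D2:**
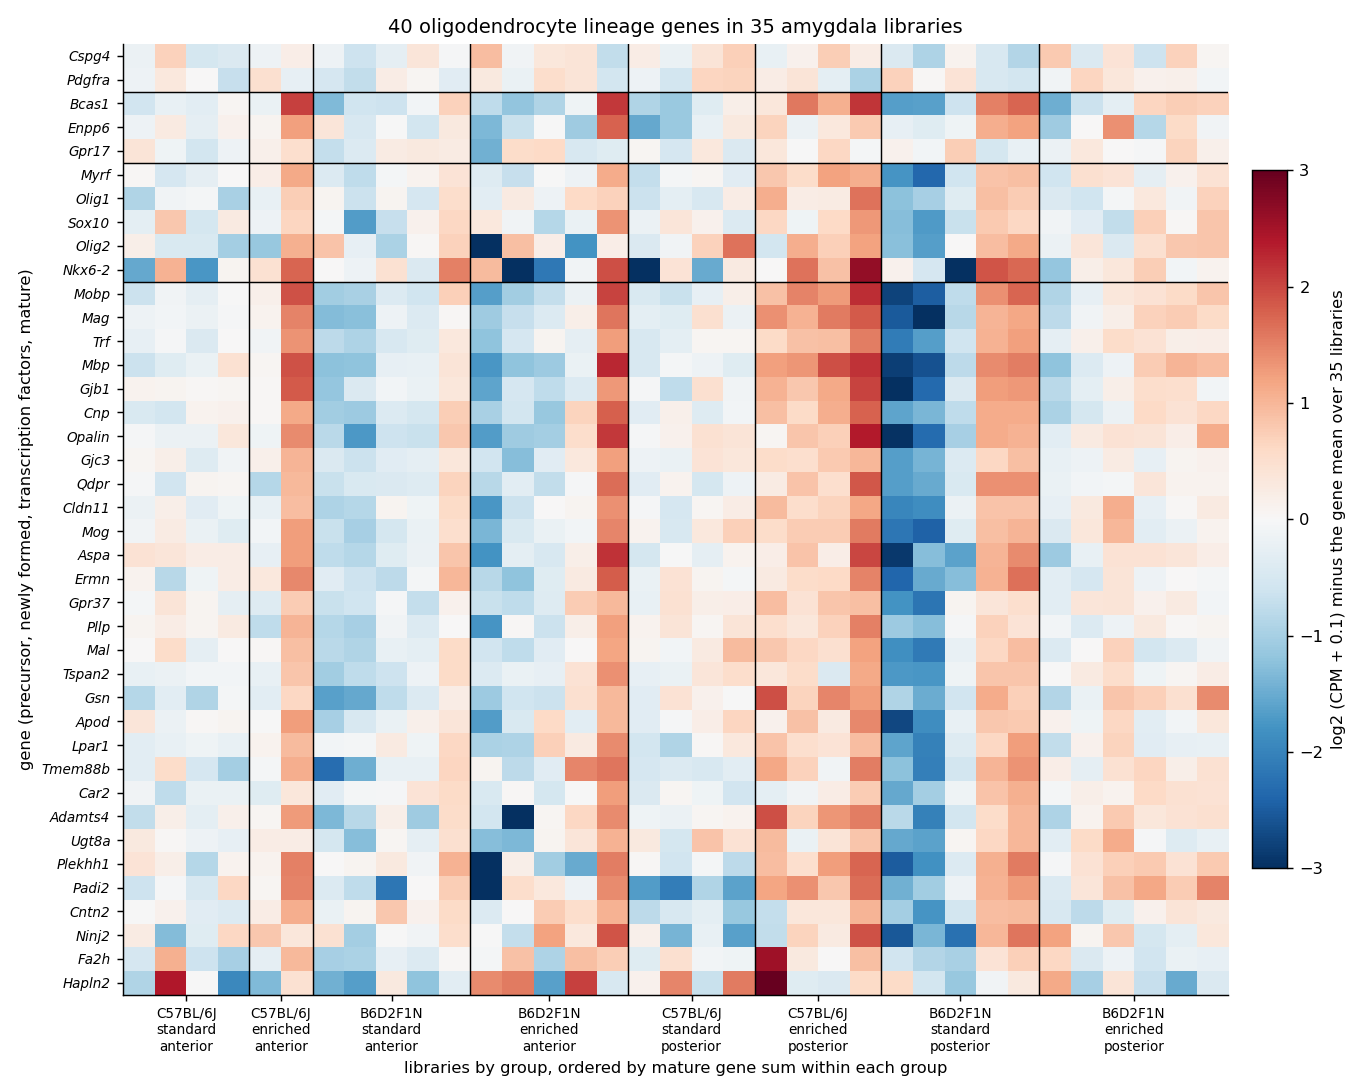
Log2 of CPM plus 0.1 of each of the 40 genes (rows, by stage) in each of the 35 libraries (columns, by group), as the difference from the gene's mean over all libraries. Most mature genes, Bcas1 and Myrf share the pattern of columns, with high libraries in several groups. Pdgfra, Cspg4, Gpr17 and the mature gene Hapln2 do not.

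Other genes known for the same stages were examined as lists. In posterior C57BL/6J edgeR called no gene of these lists, so the counts here are at an unadjusted p under 0.05, where 6.61% of all genes were higher and 3.64% lower in enriched mice. Of 30 further genes of mature oligodendrocytes 17 were higher at that level, and the median log2 fold change was 0.64. The summed level of this list was 2170 to 2850 CPM in standard and 2560 to 5360 CPM in enriched mice. Carns1, which makes carnosine, had 2.15, Prr18 1.55 and Tmem63a, an ion channel gene, 1.03. Of 14 further precursor genes none was higher at that level and 1 was lower, and the list's median was -0.10. Of 10 further genes of newly formed cells 2 were higher at that level (Kndc1 and Tcf7l2, both 0.71), with a median of 0.04. The 20 genes of cholesterol and myelin lipid synthesis, on which membrane growth draws, had a median of 0.07, with 4 higher and 1 lower at that level (Msmo1, -0.67). The 12 axonal partners of the node and paranode had a median of 0.40, with 2 higher at that level (Epb41l3, 0.61, and Kcna1, 0.74).

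Markers of other cell types moved in places with the same comparison. All 9 ependymal markers had a positive log2 fold change, with a median of 0.96, and 4 of them had an unadjusted p under 0.05. Their sum was 17.7 to 49.0 CPM in standard and 27.8 to 228 CPM in enriched mice. Foxj1, which defines ciliated cells, was at 0 to 0.867 against 2.42 to 16.5 CPM. Of 10 astrocyte markers 2 were higher at an unadjusted p under 0.05, among them Gfap (1.10), with sums of 6280 to 9400 against 6620 to 9830 CPM. For the 10 meningeal fibroblast markers the sums were 941 to 1770 and 264 to 1430 CPM, and for the 10 choroid plexus markers 297 to 1530 and 167 to 1440 CPM. The 9 excitatory markers gave 3 higher genes and 2 lower, and the 10 inhibitory markers 2 higher, including Pvalb (2.35), and 1 lower. No marker of these lists was called by edgeR, and their part in the myelin difference was not tested.

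In the anterior portion of C57BL/6J the mature genes leaned the same way, but only 2 enriched mice had a library among the 35 used here. The mature sum was 4460 to 6540 CPM in the 4 standard mice and 5670 and 16900 CPM in the enriched mice, so 1 of the 2 lay inside the standard range. Mbp was at 3490, 1960, 2200 and 1620 CPM against 9570 and 2650 CPM, with a log2 fold change of 1.39 (SE 0.416, adjusted p = 0.620). edgeR called none of the 22865 genes (0%). At an unadjusted p under 0.05, 16 of the 40 were higher in enriched mice, where 3.26% of all genes were, and DESeq2 called 1 of the 40, where it called 0.117% of its genes in that direction. The median over the 40 was 0.75, and 39 were positive. Without enriched mouse 1, the higher of the 2, the median was 0.04, 23 were positive and Mbp had 0.17, in a fit that assumes the remaining enriched mouse to vary like the standard mice. In 6 of the 40 the groups did not overlap and enriched mice were higher, against 9.09% of all genes, among them Mobp (1.51) and Mag (1.05). Pdgfra (0.22) and Cspg4 (0.05) had adjusted p values of 0.993 and 0.999. Markers of other cells differed in both directions. All 9 markers of striatal projection neurons were positive, with a median of 0.84 and 4 at an unadjusted p under 0.05, and their sum was 369 to 1050 CPM in standard and 421 and 1310 CPM in enriched mice. Of the 9 ependymal markers 7 were positive, with a median of 1.49 and sums of 4.93 to 10.9 against 8.80 and 10.2 CPM. The endothelial sum was lower in enriched mice without overlap, at 1760 and 2710 against 3090 to 5650 CPM, with 2 of 10 markers lower at an unadjusted p under 0.05. So was the microglia sum, at 1190 and 1280 against 1290 to 1700 CPM, with 1 of 10 markers positive. The sum of the genes of cholesterol and myelin lipid synthesis was 2640 and 2750 against 2820 to 3800 CPM. No marker was called, and their part in the difference was not tested.

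In B6D2F1N mice none of the 40 genes was called for housing in either portion. In the anterior portion the mature sum was 2940 to 7990 CPM in standard mice and 2320 to 5710 CPM in 4 of the enriched mice, with enriched mouse 1 at 21200 CPM. Mbp was at 2130, 1090, 3320, 1080 and 2180 CPM in standard mice and at 12100, 751, 2220, 1180 and 1090 CPM in enriched mice, with a log2 fold change of 0.83 (SE 0.644). edgeR and DESeq2 called none of the 40, and edgeR called none of the 24639 genes (0%). Of the 40, 37 had a positive log2 fold change, with a median of 0.45. Without enriched mouse 1, 15 were positive, the median was -0.13 and Mbp had -0.60. In the fit of all mice Hapln2 (1.79) and Fa2h (0.92), the enzyme that hydroxylates myelin fatty acids, were the genes at an unadjusted p under 0.05, where 6.30% of all genes were, both with an adjusted p of 0.770.

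In the posterior portion of B6D2F1N the standard mice themselves covered the whole range. Their mature sums were 1190, 1320, 3830, 13100 and 14600 CPM, a 12.3-fold span, and the 6 enriched mice lay within it at 3540 to 9050 CPM. Mbp was at 1470, 7360, 6800, 358 and 411 CPM in standard mice, and at 1100 to 5170 CPM in enriched mice, with a median of 3280 CPM. The log2 fold change was -0.04 (SE 0.682). Neither edgeR nor DESeq2 called any of the 40, and edgeR called none of the 26028 genes (0%). Cspg4 alone of the 40 had an unadjusted p under 0.05, as did 6.59% of all genes, with 9.05 ± 2.84 CPM (SD, n = 5) in standard and 15.0 ± 5.71 CPM (SD, n = 6) in enriched mice, a log2 fold change of 0.71 and an adjusted p of 0.752. The median over the 40 was 0.07 against 0.025 over all genes. Without standard mice 2 and 3, which had the highest sums and whose titles are numbered above 30, the median was 1.29, 38 of the 40 were positive and Mbp had 2.11. These values are a description with no test, since that limit was set after the sums were seen and takes out the highest standard libraries. In the fit of all mice, markers of other cells were positive for 10 of 10 meningeal fibroblast (median 0.98) and 9 of 9 ependymal genes (0.70). So were 9 of 10 pericyte and vascular smooth muscle markers (0.35), 6 of 10 endothelial and 5 of 10 astrocyte markers. None was called, and their part in the Cspg4 difference was not tested.

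**Figure D3:**
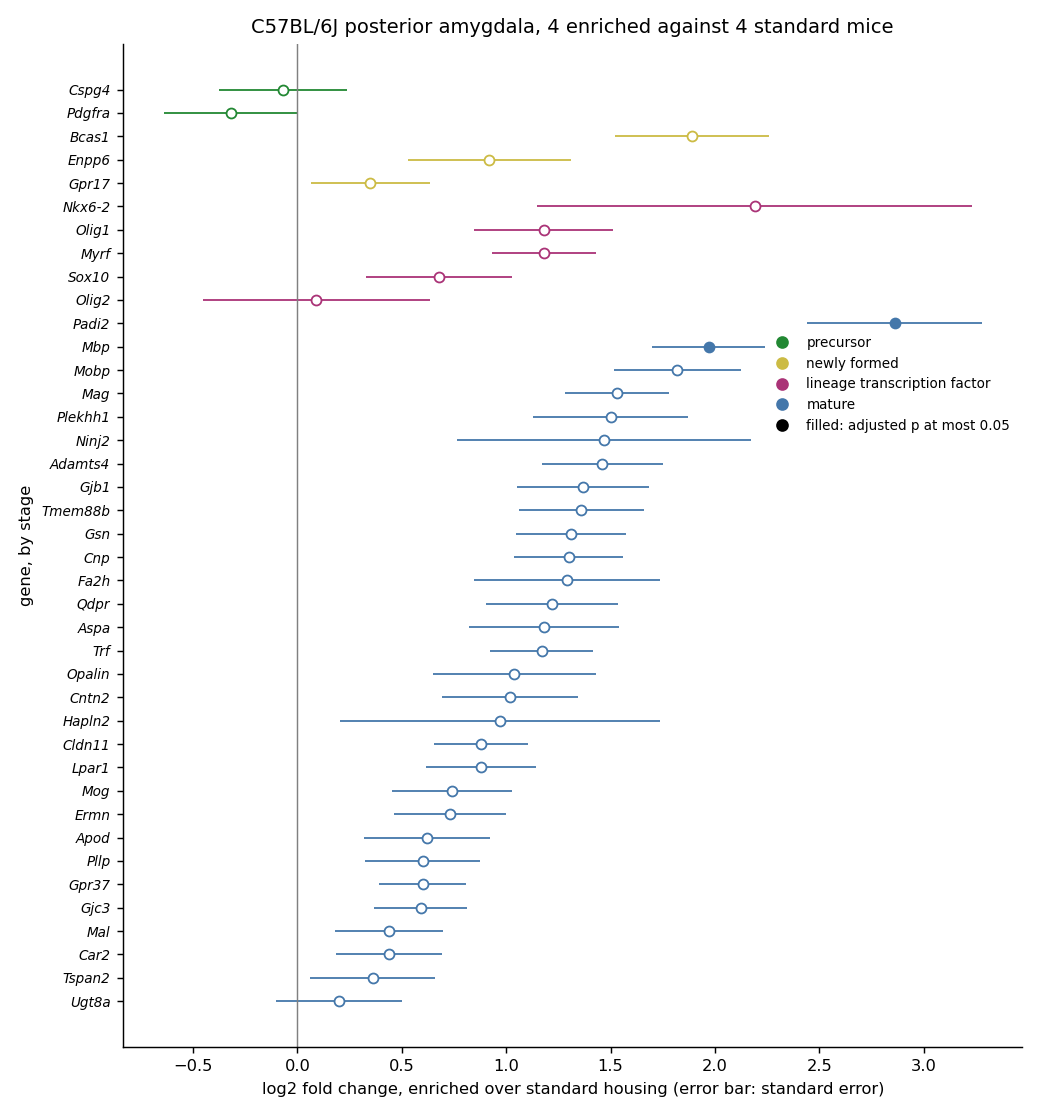
Log2 fold change (enriched minus standard) of each of the 40 genes, with its standard error, in posterior C57BL/6J, where the median was 1.03. In the comparisons not drawn the median was 0.75 in anterior C57BL/6J, 0.45 in anterior B6D2F1N and 0.07 in posterior B6D2F1N.

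Whether the housing difference depended on the strain was tested directly with an interaction term. In the posterior portion none of the 40 was called by edgeR or by DESeq2, and edgeR called none of the 27871 genes (0%). The housing difference was smaller in B6D2F1N at an unadjusted p under 0.05 for 9 of the 40, where 4.81% of all genes were. Padi2 had an interaction of -2.35 on the log2 scale (SE 0.681) and Bcas1 of -2.33 (SE 0.817), both with an adjusted p of 0.491. Mbp had -1.99 (SE 0.882, adjusted p = 0.552), and Pdgfra and Cspg4 had 0.43 and 0.80. In the anterior portion none of the 40 was called by either tool, with 0% of all genes called by edgeR, and 1 had an unadjusted p under 0.05 (Hapln2, 2.80), where 5.98% of all genes did. The strain dependence of the myelin difference was therefore not shown by these tests.

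Between strains, the enriched posterior groups stood apart most. Of the 40 genes, 27 were lower in B6D2F1N at an unadjusted p under 0.05, where 3.96% of all genes were, and the median log2 fold change was -0.78. None was called by edgeR, which called 101 of 25640 genes (0.394%), and DESeq2 called 6, all lower in B6D2F1N, where it called 0.377% of its genes in that direction. Mag was at 348 ± 78.9 CPM (SD, n = 4) in C57BL/6J and 153 ± 54.2 CPM (SD, n = 6) in B6D2F1N, with a log2 fold change of -1.17 (adjusted p = 0.0911). Gjb1 was at 58.8 ± 24.6 and 24.6 ± 8.07 CPM (-1.25, adjusted p = 0.0918). For 9 of the 40, these 2 genes, Mbp and Mobp among them, every C57BL/6J library lay above every B6D2F1N library, against 0.753% of all genes. In the same comparison all 10 choroid plexus markers were positive, with a median of 2.34 and 8 higher in B6D2F1N at an unadjusted p under 0.05, and their sums were 167 to 1440 CPM in C57BL/6J and 1170 to 14900 CPM in B6D2F1N. The 9 excitatory markers had a median of -0.71, with 3 lower and 1 higher at that level. The library numbers described below were 6, 31, 32 and 36 in C57BL/6J and 12 to 29 in B6D2F1N, and the part of the markers and numbers in the strain difference was not tested. Under standard housing edgeR called none of the 40 in the posterior (0.373% of all genes called) or the anterior portion (0.370%), and none in the enriched anterior groups (0.0639%), and DESeq2 called none in these 3 comparisons. At an unadjusted p under 0.05 there were 3 of the 40 in the standard posterior groups (Padi2, Enpp6 and Cspg4), where 10.3% of all genes reached that level, 2 in the standard anterior groups (Cntn2 and Pllp) against 9.00%, and none in the enriched anterior groups against 4.33%, so these members were no more frequent than genes at large.

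Between portions of the same mouse edgeR called 1 of the 40 genes, in 1 strain. The portions are named here as the labels name them. The study's methods place the posterior portion nearer to bregma than the anterior one, and if the names were exchanged each portion direction below would be reversed. In C57BL/6J, with the mouse as a block, edgeR called 937 of 25751 genes (3.64%) and 1 of the 40, Gsn, while DESeq2 called 8.64% of its genes and 2 of the 40, Gsn and Cntn2. The Gsn posterior level was higher in 6 of 6 mice, at 138 ± 92.8 against 65.9 ± 28.2 CPM (SD, n = 6 each), with a log2 fold change of 0.90 (SE 0.214, adjusted p = 0.0214). The call was lost without standard mouse 4, and in the fit without the mouse block. In this comparison edgeR also called as higher in the posterior portion 5 of 10 choroid plexus markers (median 3.08), 3 of 9 ependymal markers (median 3.41), 3 of 10 astrocyte markers (median 0.25) and 1 of 10 meningeal fibroblast markers (median 0.30). Of the 12 axonal partners of the node and paranode it called 3 as lower and 1 as higher (median -0.15). The meningeal fibroblast sum of the standard mice was 63.1 to 89.4 CPM in the anterior and 941 to 1770 CPM in the posterior portion. The part of these genes and markers in the Gsn and Cntn2 differences was not tested. In B6D2F1N edgeR called 1110 of 27761 genes (4.00%), all genes shifted by a median of 0.148, and none of the 40 was called by edgeR or DESeq2. There Gsn had 0.64 and was higher in the posterior portion of 9 of 10 mice (adjusted p = 0.137). Cntn2, an adhesion protein of the juxtaparanodal region of the axon, was lower in the posterior portion in all 6 C57BL/6J mice (-0.63, adjusted p = 0.0931 with edgeR and 0.0383 with DESeq2). The portion difference of Mbp was 0.14 in C57BL/6J and 0.29 in B6D2F1N, neither called. Whether a portion difference depended on housing was tested with an interaction term, and edgeR called 0% of genes in both strains. In those interaction tests 1 of the 40 had an unadjusted p under 0.05 in each strain, Gsn in C57BL/6J (0.96) and Plekhh1 in B6D2F1N (2.36), where 4.95% and 3.96% of all genes did, and DESeq2 called none of the 40.

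Within a mouse, the mature sums of both portions were compared over the 16 mice. Pearson's r of their log2 values was 0.427 (permutation p = 0.0736), Spearman's rho was 0.471 (p = 0.0676), and r without the 2 mice farthest from the median anterior sum was 0.279. The posterior sum was 0.269 to 4.80 times the anterior sum. In 11 of the 16 mice the ratio lay between 0.5 and 2, among them all 6 C57BL/6J mice at 0.805 to 1.97. B6D2F1N standard mouse 2 went from 3050 CPM (anterior) to 14600 CPM (posterior), and standard mouse 5 from 4930 to 1320 CPM.

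Every sample title holds 2 numbers whose meaning the labels do not give. The first, called the library number here, ran from 2 to 37. The limit between 30 and 31 used here was set after the mature sums were seen, so the separation at it is a description fixed by that choice. The 7 libraries numbered 31 to 37 had mature sums of 11800 to 21200 CPM, with a median of 15000, and the 28 numbered 2 to 30 had 1190 to 11200 CPM, with a median of 5000. Newly formed sums were 223 to 435 and 53.6 to 192 CPM, while precursor sums overlapped at 49.4 to 102 and 48.2 to 128 CPM. The 7 libraries came from 4 groups: 3 from enriched posterior and 1 from enriched anterior C57BL/6J, 2 from standard posterior and 1 from enriched anterior B6D2F1N. The numbers and the groups are not balanced, since the standard posterior C57BL/6J libraries were numbered 7 to 15 and the enriched ones 6, 31, 32 and 36. Enriched mouse 3, whose library had number 6, had a mature sum of 11200 CPM, above the 4460 to 5670 CPM of the standard mice.

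**Figure D4:**
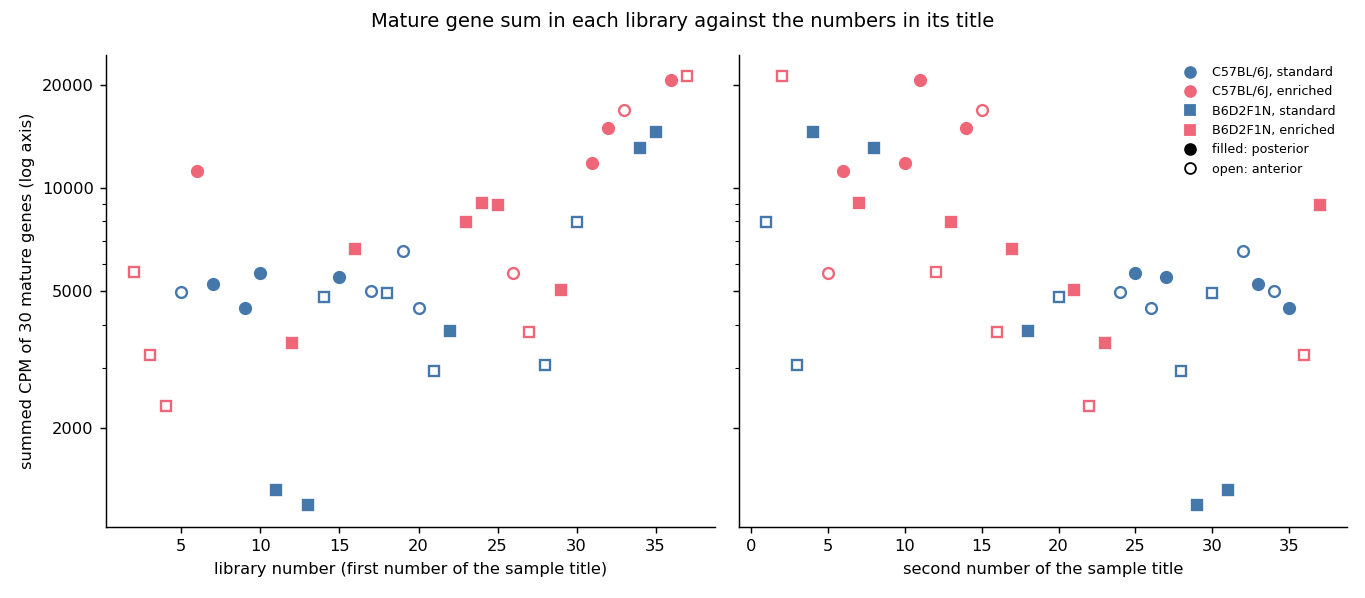
Summed CPM of the mature genes (log scale) against the first and the second number of the sample title in the 35 libraries, with strain and housing marked. The 7 libraries with a first number of 31 to 37, a limit set after the sums were seen, hold the 7 highest sums, at 11800 to 21200 CPM.

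The relation was tested in 8 correlations of log2 Mbp with either number, with permutation p-values adjusted over the 8. Over all 19 posterior libraries Pearson's r with the library number was 0.642 (permutation p = 0.00271, adjusted 0.00925), Spearman's rho was 0.642 (p = 0.00371), and r was 0.807 without the 2 libraries farthest from the median number. Over all 16 anterior libraries r was 0.581 (p = 0.0173, adjusted 0.0346), rho 0.435 (p = 0.0937), and r without the 2 farthest 0.518. Within the 11 posterior B6D2F1N libraries r was 0.831 (p = 0.00191, adjusted 0.00925), rho 0.864 (p = 0.00115), and r without the 2 farthest 0.742. Within the 10 anterior B6D2F1N libraries r was 0.544 (p = 0.0942, adjusted 0.114), rho 0.406 (p = 0.249), and r without the 2 farthest 0.448. The second number gave r of -0.631 over all posterior (p = 0.00347, adjusted 0.00925, rho -0.632, -0.795 without the 2 farthest), -0.373 over all anterior (p = 0.155, rho -0.374, -0.0964 without the 2 farthest), -0.619 in posterior B6D2F1N (p = 0.0434, adjusted 0.0694, rho -0.636, -0.969 without the 2 farthest) and -0.540 in anterior B6D2F1N (p = 0.1, rho -0.636, -0.460 without the 2 farthest). In C57BL/6J the first number separates almost with housing and the second completely, at 25 to 35 in standard and 6 to 14 in enriched posterior libraries and 24 to 34 against 5 and 15 in anterior ones, so no correlation was computed within that strain. The values over all libraries include the C57BL/6J libraries of both housings, and number and housing cannot be told apart there.

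Across genes, the library number was then fitted as a linear term within B6D2F1N, with a term for housing, a test chosen after seeing the data. In the posterior portion 20 of the 40 genes were called and higher at higher numbers, where 1.02% of all genes were. Mbp rose by 0.166 on the log2 scale per number (SE 0.0230, adjusted p = 0.00737), Mobp by 0.152, Mag by 0.148 and Bcas1 by 0.137. The slopes of Pdgfra (-0.020), Cspg4 (-0.017) and Gpr17 (-0.002) were not called. The count rested on the 5 standard mice, where 32 of the 40 were called alone (1.47% of all genes). The 6 enriched mice alone gave none of the 40 and 0 of all 24010 genes tested. The count fell to 0 without standard mouse 4 or 5, with 4 and 7 genes called in all. It fell to 4 without standard mouse 2 or 3, with 40 and 44 genes called in all. In the same posterior fit 7 of 9 striatal projection neuron markers were lower at higher numbers at an unadjusted p under 0.05, with a median of -0.08 per number, and 2 of 10 astrocyte markers were called as higher. Their part in the relation was not tested. In the anterior portion edgeR called none of the 40 (0.00812% of all genes) and 21 were higher at higher numbers at an unadjusted p under 0.05 (6.31% of all genes), and DESeq2 called 5, where it called 0.577% of its genes in that direction. For the second number edgeR called none of the 40 in either portion (0% of all genes in both), but without enriched mouse 6 it called 30 of the 40 in the posterior portion, among 580 genes in all. There 32 posterior and 22 anterior genes of the 40 were lower at higher numbers at an unadjusted p under 0.05, against 5.48% and 4.87% of all genes, and 31 of the 40 were called in the standard posterior mice alone (1.32% of all genes).

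With the library number as a term, the housing difference of anterior C57BL/6J was 0.48 for Mbp (SE 0.664, adjusted p = 0.855), with 32 of the 40 positive and a median of 0.51. That of posterior C57BL/6J was 1.53 for Mbp (SE 0.313, adjusted p = 0.128) and 2.60 for Padi2 (SE 0.465, adjusted p = 0.0732), none of the 40 was called, and 2 of all genes were (0.00815%). In that fit 34 of the 40 were positive, the median was 0.69 against -0.135 over all genes, and 19 were higher at an unadjusted p under 0.05, where 4.64% of all genes were. With the second number as a term, which does not overlap between the housing groups, none was called either (0%), at 2.59 for Mbp (adjusted p = 0.618) and 1.89 for Padi2 (adjusted p = 0.755). In anterior C57BL/6J the second number as a term gave 3.46 for Mbp (SE 0.641, adjusted p = 0.658). There 35 of the 40 were positive, the median was 1.42 and none was called. Enriched mouse 3 was the single enriched mouse of posterior C57BL/6J with a library number below those of the 7, so the comparison within that range rests on 1 mouse. In posterior B6D2F1N, with the library number as a term, 18 of the 40 were higher in enriched mice at an unadjusted p under 0.05 (5.96% of all genes), none of them called, with Mbp at 1.19 (SE 0.349, adjusted p = 0.519). Housing, the library number and whatever the numbers stand for cannot be told apart in C57BL/6J.

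The mature sum was also set against the measures of library quality, as a description over the 35 libraries. Pearson's r of its log2 value was -0.207 with the total gene count, 0.561 with the number of genes detected, -0.160 with the share of reads outside genes and 0.551 with the share of reads that aligned to several places. The part of these measures in the results was not tested.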

How the data were processed

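Per the labels and the study's methods, poly(A) RNA of laser-captured amygdala pieces was prepared with a low-input kit and sequenced as single reads of 72 bases. According to the submitters' processing notes the tools were bcl2fastq, Trimmomatic 0.38, FastQC 0.11.7, HISAT2 2.1.0, SAMtools 1.8 and HTSeq 0.11.2 with GRCm38. The authors deposited 1 table of raw read counts per gene and library. The annotation release and the strand setting of the counting are not given in the sources used here. GENCODE M21 was used for names, positions and exon lengths, and 52489 of the 52636 identifiers were found in it. A gene on the opposite strand overlaps 17 of the 40 genes, and without strand such reads cannot be told apart. Summary lines without a gene were left out of library sizes. Reads outside genes came to 13.7% to 26.4%, ambiguous reads to 3.06% to 3.74% and reads aligned to several places to 6.23% to 10.9% of the deposited counts.

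Groups came from the labels. From the deposited counts, differences were tested in R 4.3.3 with edgeR 4.0.16 (TMM, quasi-likelihood F test, genes with at least 10 counts over the libraries of a fit, Benjamini-Hochberg over all genes tested, adjusted p of at most 0.05), separately for each comparison. The portion fits held the mouse as a block. Log2 CPM used a prior count of 2, and TMM factors ran from 0.811 to 1.23. The code was tested on simulated data. No 2 of the 35 libraries were identical (595 pairs). Replicates were separate mice, and each p-value measures the spread between these animals and their libraries. The study kept mice of a strain together in shared cages and gave playground access by cage. Cage was not a term in any fit, so mice that shared a cage were counted as separate replicates. The part of the cage in the housing differences was not tested. Pairing came from the mouse in the labels. Deviations of the portions of a mouse from their group means had a median correlation of 0.0481 over 16 mice (-0.105 to 0.222, 16022 genes).

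Values per library were given for genes past the threshold in a housing comparison and for the precursor, newly formed and transcription factor genes, to which Mobp, Mag and Gsn were added after their values were seen. Genes outside the 40 came from the listed pathways and markers by smallest p, and some of them are not reported here. The 40 genes and all lists were chosen with earlier results of these data known. Alternatives were DESeq2 1.42.0, its size factors, filterByExpr, no minimum count, robust empirical Bayes (limma 3.58.1), a shared fit for the 4 groups of each portion, leaving out mice that lack a portion, each mouse left out and, for sums, medians of log2 CPM. All tests and terms for the numbers in the titles were chosen after seeing the data. Correlations used 100000 permutations.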

Additional observations from a re-analysis of the deposited data

Results flagged for a closer look

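In groups of 4 to 6 mice, a library was listed when its gap to the nearest other library took up more of the group's range than Dixon's 95% limit allows, which chance does in about 1 in 20 groups. Over the 40 genes and the 7 groups of that size, 29 of 280 values passed the limit, and 4 of 28 stage sums did. Among the results of the report, B6D2F1N enriched mouse 1 stood far above the other 4 mice of its group in the anterior portion. Its mature sum was 21200 CPM against 2320 to 5710 CPM, its newly formed sum 435 CPM against 62.2 to 97.0 CPM, and its transcription factor sum 105 CPM against 43.3 to 55.3 CPM. In the same library Mbp was at 12100 CPM against 751 to 2220 CPM, Bcas1 at 374 CPM against 37.8 to 77.5 CPM, and Enpp6 at 47.5 CPM against 5.39 to 13.9 CPM. It was high in this sense for 14 of the 40 genes, and standard mouse 3 of the anterior B6D2F1N libraries was for 7. In the anterior standard group of C57BL/6J, the transcription factor sum of mouse 2 was 50.4 CPM against 42.3 to 43.7 CPM in the other 3 mice.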

How the results depend on the processing

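The number of the 40 genes called in a comparison was the same under every alternative in 9 of 18 comparisons. For housing in posterior C57BL/6J (2 genes) it was 15 with DESeq2 (of 319 genes called in all), 12 with no minimum count (of 112), 0 in 1 fit of the 4 groups, 0 with only mice that have both portions, 0 with either title number as a term, 1 among libraries numbered up to 30 (a limit set after the sums were seen, which leaves 1 enriched mouse; the gene was Fa2h, at 128 CPM in that mouse and 21.9 to 40.6 CPM in the other 3), and 0 to 10 (of 172) when 1 mouse was left out. Housing in anterior C57BL/6J (0) gave 1 with DESeq2 (of 100) and 7 with no minimum count (of 274). The enriched posterior strain comparison (0) gave 6 with DESeq2 (of 342), 2 with no minimum count (of 111) and 0 to 1 (of 85) with 1 mouse left out. The portion comparison of C57BL/6J (1) gave 0 with no replicate block, 2 with DESeq2 (of 1535) and 0 to 1 with 1 mouse left out, and that of B6D2F1N (0) gave 0 to 1, the 1 (of 1100) without standard mouse 5, and the block or its absence changed no other call. The library number in posterior B6D2F1N (20) gave 32 with DESeq2 (of 1590), 32 in standard (of 518) and 0 in enriched mice alone and 0 to 30 (of 967) with 1 mouse left out, and in anterior B6D2F1N (0) 5 with DESeq2 (of 291). The second number (0) gave 5 with DESeq2 (of 102), 31 in standard mice alone (of 470) and 0 to 30 with 1 mouse left out in posterior, the 30 (of 580) without enriched mouse 6, and 1 with DESeq2 (of 97) in anterior B6D2F1N. With the median log2 CPM of a stage in place of its sum, the housing difference in posterior C57BL/6J was 0.39 instead of 1.60 for newly formed genes, 0.47 instead of 1.04 for transcription factors and 0.93 instead of 1.49 for mature genes, and 0.23 instead of 0.76 for transcription factors in the anterior portion. Within the spread between mice, it moved the newly formed, transcription factor and mature differences to 0.05, 0.43 and 0.38 from 0.53, 0.24 and 0.62 in anterior and to -0.14, 0.51 and 0.64 from -0.33, 0.11 and 0.01 in posterior B6D2F1N, the precursor difference there to 0.42 from 0.19, and the newly formed and mature differences in anterior C57BL/6J to 0.61 and 0.67 from 1.34 and 1.11. In posterior C57BL/6J 26 of the 40 genes kept the sign of their housing difference under every alternative. The sign turned, in each case without a call, with the second title number as a term for Enpp6 (-1.38), Olig2 (-1.77), Mal (-0.71), Tspan2 (-1.05), Hapln2 (-4.16), Ugt8a (-0.99), Fa2h (-1.14), Apod (-0.28) and Lpar1 (-0.69). With the library number as a term it turned for Olig2 (-1.04), Opalin (-0.11), Ninj2 (-0.01) and Car2 (-0.02). Among libraries numbered up to 30 it turned for Olig2 (-1.30), Opalin (-0.24), Ninj2 (-0.23), Car2 (-0.10), Apod (-0.07) and Cntn2 (-0.13), and with only mice that have both portions for Cspg4 (0.01), Olig2 (-0.46) and Tspan2 (-0.14). With 1 mouse left out, Cspg4 ran from -0.28 to 0.09, Olig2 from -0.15 to 0.64, Hapln2 from -0.90 to 1.33, Ugt8a from -0.00 to 0.42, and the portion difference of Mbp in C57BL/6J from -0.05 to 0.29. The causes of these changes were not tested.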

Other observations

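Outside the 40 genes, those whose log2 CPM followed the log2 mature sum most closely over the 35 libraries were Plekhb1 (Pearson's r 0.956), Sept4 (0.945), Prr18 (0.934), Ttyh2 (0.914), Pdlim2 (0.909), Otud7b (0.896), Il33 (0.887), Rassf2 (0.883), C030029H02Rik (0.883) and Ndrg1 (0.882). Among the 11675 genes compared, each with a mean of at least 5 CPM, the median r was 0.0181 and 43 genes reached 0.8. Sept4, Prr18, Il33 and Ndrg1 were also on the list of further mature oligodendrocyte genes, whose summed level had an r of 0.941 with the mature sum. The summed levels of further newly formed genes gave 0.731 and those of further precursor genes -0.132. Cholesterol and lipid synthesis gave -0.185, axonal node and paranode partners -0.353, astrocyte markers 0.0768, microglia markers -0.280, endothelial markers -0.440 and ependymal markers 0.294. These are correlations over libraries that share their groups and normalization, given as a description.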
